A study of Homo sapiens with 2 samples.

Results

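A-to-G mismatches in the GAPDH transcript were followed position by position in cells of the human embryonic kidney line HEK-293T that carried a CIRTS-hADAR biosensor. Members were all A positions that the plus-strand files list on hg19 chromosome 12 between 6643585 and 6647537. There were 291 of 3518802 listed positions in the library with ABA and 292 of 4079392 in the library without ABA. The 291 positions listed in both libraries were compared, and the remaining position, 6646473, was listed without ABA alone at 10 reads. GAPDH was selected on the A-to-G shares of these same libraries, in which 1 of its positions, 6647015, had stood out. The values below therefore describe the 2 libraries, and no test between them was made. The nearest listed plus-strand positions outside the interval were 6641079 and 6678067, so the interval cut through no run of covered positions. No hg19 gene annotation was used here, and the name GAPDH rests on the interval.

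The study sequenced mRNA from cells with the small molecule ABA and from cells without it. Both groups carried the same biosensor, and neither dose nor duration of ABA is given in the sources used here. Each condition had 1 library from 1 biological replicate, so no difference has a replicate check. Intervals are at 95%, exact, and cover counting error only. Reads of PCR copies and neighbouring positions on 1 read are not independent, which makes them too narrow. The files hold base counts per position and no gene levels, so the identity of the cell line was not checked against marker genes.

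GAPDH is the glycolytic enzyme that oxidises glyceraldehyde 3-phosphate and passes the electrons to NAD. Its mRNA is abundant in proliferating cells and is widely used as a reference for expression. The genome also holds processed GAPDH pseudogenes of near-identical sequence, and how reads that match several of them were counted is not stated, so a mismatch read from such a copy cannot be told apart. ADAR enzymes deaminate adenosine to inosine in double-stranded RNA, and sequencing reads inosine as G. CIRTS is a programmable RNA-targeting system built from human protein parts, and ABA, abscisic acid, is a plant hormone used to bring engineered proteins together. The G share is the percentage of G among the A and G reads at a position. The A-to-G rate applies it to the summed reads of several positions.

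GAPDH positions carried more G reads in the library with ABA. The counts were 63 G reads of 24889 with ABA and 27 of 23440 without ABA. These are rates of 0.253% (0.195 to 0.324) with ABA and 0.115% (0.0759 to 0.167) without ABA, a ratio of 2.20 (1.38 to 3.59). Position 6647015 alone held 12 of the 63 reads, and leaving it out gave 0.206% with ABA and 0.116% without ABA, with a ratio of 1.78 (1.10 to 2.95). Other mismatches at the same positions were few. A-to-C had 6 reads with ABA and 6 without ABA, a ratio of 0.943 (0.252 to 3.53). A-to-T had 3 and 3, a ratio of 0.943 (0.126 to 7.04). Both intervals hold 1 and the A-to-G ratio of 2.20, so these counts cannot tell whether the other mismatches were level. No GAPDH position reached a share of 35% in either library, the level above which a position was treated as variant-like.

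The pooled rate of GAPDH was close to that of other deeply read nuclear positions. Nuclear here means chromosomes 1 to 22 and X, both strands, with variant-like positions left out unless stated otherwise. The 2853523 such positions outside GAPDH had 0.0793% with ABA and 0.0410% without ABA, a ratio of 1.93 (1.90 to 1.97). GAPDH was deeper than these, with a median depth of 88 reads with ABA and 83 without ABA, against nuclear medians of 11 and 12. Where both libraries had 50 reads or more, GAPDH had 0.265% (0.202 to 0.341) with ABA and 0.123% (0.0806 to 0.181) without ABA over 225 positions. The 28532 other nuclear positions of that depth had 0.238% (0.232 to 0.245) and 0.128% (0.123 to 0.133). The GAPDH intervals held the nuclear values in both libraries. Position 6647015, which led to the choice of GAPDH, is among these GAPDH positions. Leaving it out gave 0.213% (0.157 to 0.282) with ABA and 0.124% (0.0809 to 0.181) without ABA, and both intervals again held the nuclear values. At this depth the GAPDH ratio was 2.15 (1.33 to 3.54) with that position and 1.72 (1.04 to 2.88) leaving it out. The other nuclear positions had 1.87 (1.78 to 1.95). For other mismatches the ratios over the 2853523 nuclear positions were 1.14 (1.09 to 1.18) for A-to-C and 1.03 (0.973 to 1.09) for A-to-T.

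Most positions with a G read had 1 such read. A G read was found at 40 of 291 positions with ABA, where 32 had 1 G read, 4 had 2 and 4 had 3 or more. Without ABA it was found at 22 positions, where 18 had 1, 3 had 2 and 1 had 3. Where both libraries had 50 reads or more, 17.3% of GAPDH positions had a G read with ABA, beside 12.8% of all nuclear positions. These 28765 nuclear positions include GAPDH and variant-like ones. GAPDH was deeper within this set too, with medians of 100 reads with ABA and 94 without ABA against 71 and 68 outside GAPDH, and the chance of a G read grows with depth. Without ABA the shares with a G read were 9.33% and 8.73%. At this depth the ABA library gave the higher share at 37 of 225 GAPDH positions and the lower one at 21. Of the same 28765 nuclear positions 11.9% were higher and 7.19% lower. A G read in both libraries was found at 2 positions, which is 5% of the positions with a G read with ABA and 9.09% of those without ABA. Over all nuclear positions outside GAPDH, which are shallower, these shares were 5.67% and 10.03%, and over those read 50 times or more in both libraries 18.7% and 27.4%. They were 6645917, with 1 of 95 reads with ABA and 1 of 90 without ABA, and 6645929, with 1 of 90 and 1 of 86. The 8 positions with 2 or more G reads with ABA had 0 without ABA, as did 73.1% of such nuclear positions of all depths and 64.1% of those at the greater depth. The 4 positions with 2 or more without ABA had 0 with ABA, beside 43.0% and 39.6% of such nuclear positions. With counts this small nothing particular to GAPDH is read from them.

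**Figure D1:**
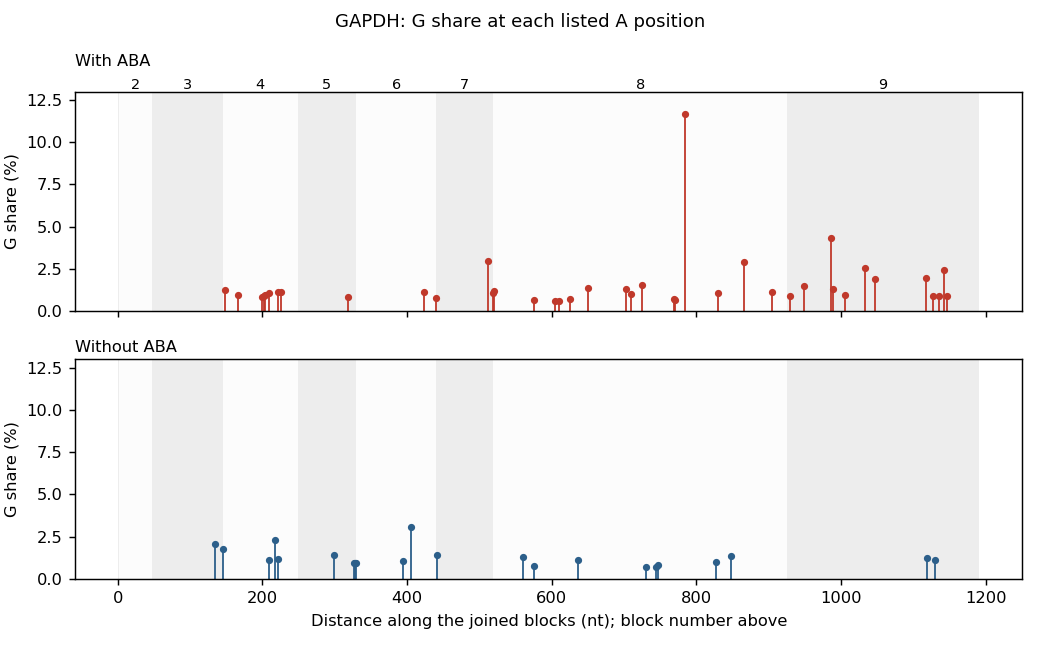
G share in percent (vertical axis) at each of the 291 A positions against distance in nt along the blocks laid end to end (horizontal axis), with ABA above and without ABA below, 1 library each. Position 6647015 in block 8 stands at 11.7% with ABA, and the other 290 positions lie at 4.35% or less in both libraries.

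Position 6647015 had the highest share. It had 12 G reads of 103 with ABA, a share of 11.7% (6.17 to 19.5), and 0 of 76 without ABA, with an exact upper limit of 4.74%. A floor of 3 reads, used by convention for a count of 0, is a share of 3.95%. The share with ABA was 2.95 times that floor, counting error of the 12 reads aside. It was 1 of 279 GAPDH positions, all read 20 times or more in both libraries, whose share was higher with ABA by at least 10 percentage points, and 0 were lower by as much. Among all 359090 nuclear positions of that depth, variant-like ones included, 0.0234% were higher and 0.00167% lower by this size. At a difference of at least 5 points the GAPDH counts were again 1 and 0, beside 0.229% and 0.0582% of those nuclear positions. Because 6647015 is the position that led to the choice of GAPDH, nothing is read from these counts. The position also carried 1 C read with ABA. It is a lone A, with no listed A next to it. Its depth per nuclear read was 1.41 times as high with ABA, within a stretch from 6646950 to 6647049 that was 1.23 times as deep.

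The positions that followed were much lower. Position 6647096, 81 nt further on and in the same block, had 5 of 172 reads (2.91%, 0.950 to 6.65) with ABA and 0 of 148 without ABA. Position 6647329 had 3 of 69 reads (4.35%, 0.906 to 12.2) with ABA and 0 of 49 without ABA. Position 6647486 had 3 of 122 reads (2.46%, 0.510 to 7.02) with ABA and 0 of 103 without ABA. The interval of each of these with ABA overlapped that of its share without ABA, so at this depth the difference was not detectable for any of the 3. Positions 6646547, 6646955, 6647376 and 6647460 had 2 G reads each with ABA, with shares of 1.56% to 2.94%, and 0 without ABA. Of these 8 positions, 7 lay in the last 2 blocks of the transcript.

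Without ABA the highest share was at 6646346, with 3 of 97 reads (3.09%, 0.642 to 8.77), against 0 of 101 with ABA. The other 3 positions with 2 G reads without ABA were 6645925, with 2 of 87 reads, 6646477, with 2 of 143, and 6647078, with 2 of 147. With ABA these had 0 of 97 reads at 6645925, 0 of 130 at 6646477 and 0 of 154 at 6647078. Of these 4 positions, 1 lay in the last 2 blocks.

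The listed positions fell into 9 blocks when positions at most 40 nt apart were joined. From the last listed position of a block to the first of the next the distance was 95 to 1636 nt, against at most 40 nt within a block. Exons joined over introns give such a pattern, though no exon annotation was used. Block 1 was the single position 6643734, with 10 reads with ABA and 16 without ABA. Block 2 ran from 6643979 to 6644024, block 3 from 6645660 to 6645757, block 4 from 6645854 to 6645956 and block 5 from 6646089 to 6646169. Block 6 ran from 6646271 to 6646381 and block 7 from 6646476 to 6646554. The largest blocks were the last 2: block 8, from 6646750 to 6647155, held 86 positions, and block 9, from 6647269 to 6647534, held 71. GAPDH lies on the plus strand in the RefSeq gene tables, so block 1 is the 5′ end and block 9 the 3′ end.

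Most G reads of the library with ABA, 49 of 63, lay in the last 2 blocks, and 12 of them at position 6647015. Block 8 had 31 of 9472 reads (0.327%, 0.222 to 0.464) with ABA and 9 of 8574 (0.105%, 0.0480 to 0.199) without ABA, a ratio of 3.12 (1.45 to 7.45). Block 9 had 18 of 5555 reads (0.324%, 0.192 to 0.512) with ABA and 2 of 5253 (0.0381%, 0.00461 to 0.137) without ABA, a ratio of 8.51 (2.04 to 75.6). Without position 6647015, block 8 had 19 G reads with ABA and 9 without ABA, or 0.203% and 0.106%, and the ratio of 1.91 (0.826 to 4.81) had an interval that holds 1 and was close to the 1.80 of block 4. Without 6647486, the position with most G reads in block 9, that block had 15 G reads with ABA and 2 without ABA, a ratio of 7.11 (1.65 to 64.1).

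In the upstream blocks the direction was mixed, with few G reads in each. Block 4 had 8 of 3063 reads (0.261%, 0.113 to 0.514) with ABA and 4 of 2764 (0.145%, 0.0394 to 0.370) without ABA, a ratio of 1.80 (0.484 to 8.19). Its 8 reads with ABA lay at 8 different positions, of which 6645908, 6645910, 6645911, 6645917, 6645929 and 6645933 lie close together. Whether some of these G bases came from the same read cannot be told from base counts. Block 5 had 1 of 1860 reads (0.0538%) with ABA and 4 of 1515 (0.264%) without ABA, where 6646169 was the last of 4 positions with 1 G read each. Among these, 6646166, 6646168 and 6646169 lie close together at the end of the block. Base counts cannot tell whether their G reads came from the same read. Block 6 had 2 of 2310 reads with ABA and 4 of 2408 without ABA, and block 7 had 3 of 1464 and 2 of 1422, a ratio of 1.46 (0.167 to 17.4). Block 3 had 0 of 740 reads with ABA, with an exact upper limit of 0.497%, and 2 of 809 without ABA, at 6645746 and 6645757. Block 2 had 0 of 415 and 0 of 679 reads. The intervals of the 2 libraries overlapped in each of these blocks. In all, 4 of 9 blocks had a higher rate with ABA, 3 a lower one and 2 had no G read. Among the 6 GAPDH blocks that reached 1000 reads in each library 4 were higher and 2 lower, beside 54.4% higher and 25.4% lower among all 6691 nuclear blocks of that size.

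**Figure D2:**
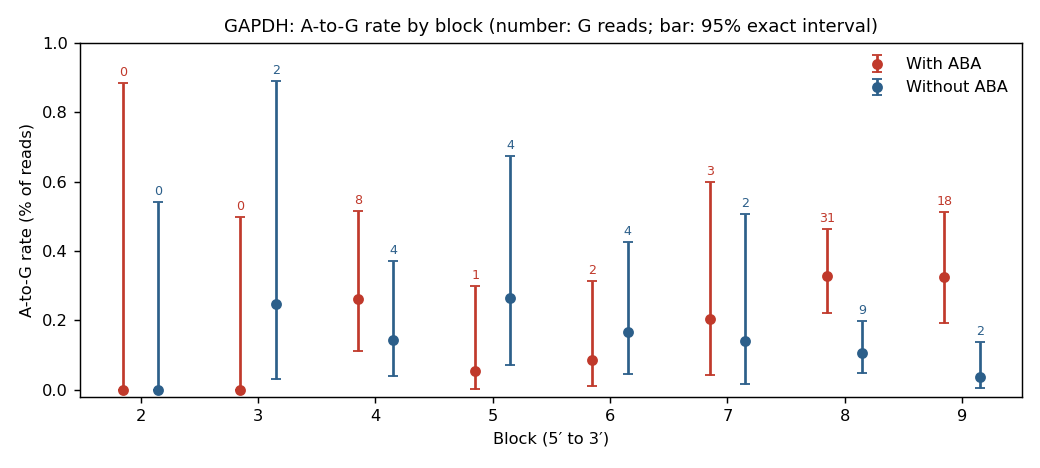
A-to-G rate in percent of reads (vertical axis) in blocks 2 to 9 from 5′ to 3′ (horizontal axis), with ABA left and without ABA right in each pair; bars are exact 95% intervals and the numbers above them are G reads. The rates with ABA and without ABA lie furthest apart in block 9, at 0.324% and 0.0381%; block 1, a single position without G reads, is not drawn.

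Divided in 2 parts, a split made after the block values had been seen, the transcript had different ratios. The last 2 blocks had 49 of 15027 reads (0.326%, 0.241 to 0.431) with ABA and 11 of 13827 (0.0796%, 0.0397 to 0.142) without ABA, a ratio of 4.10 (2.10 to 8.74). The 7 upstream blocks had 14 of 9862 reads (0.142%, 0.0776 to 0.238) with ABA and 16 of 9613 (0.166%, 0.0952 to 0.270) without ABA, a ratio of 0.853 (0.386 to 1.86). Without position 6647015 the ratio of the last 2 blocks was 3.10 (1.55 to 6.74), which overlaps the upstream interval. The last 2 blocks held 77.8% of GAPDH G reads with ABA and 40.7% without ABA, beside 60.4% and 59.0% of the reads. Within the library with ABA the rate of the last 2 blocks was 2.30 times (1.25 to 4.51) that of the upstream blocks, and 1.75 times (0.922 to 3.50) without position 6647015. Within the library without ABA it was 0.478 times (0.201 to 1.10). A-to-C reads numbered 4 with ABA and 6 without ABA in the last 2 blocks, a ratio of 0.615 (0.128 to 2.59), and 2 and 0 upstream. These counts are too few to tell whether A-to-C differed between the libraries at the 3′ end.

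**Figure D3:**
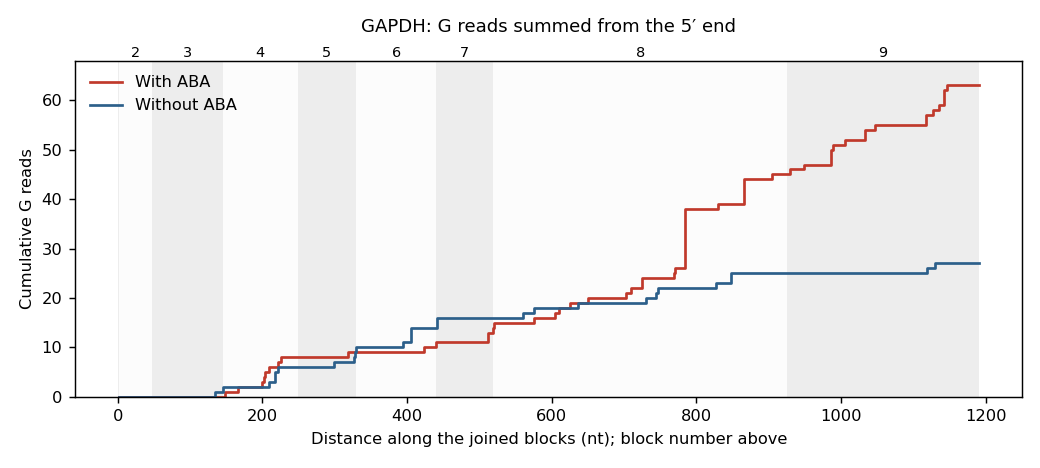
G reads summed from the 5′ end (vertical axis) against distance in nt along the joined blocks (horizontal axis), with ABA in red and without ABA in blue. The curves run close together through blocks 2 to 7, at 14 reads with ABA and 16 without ABA, and part within block 8 to end at 63 and 27.

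Inside the last 2 blocks G reads with ABA were found in 7 of 8 bins. In bins of 100 nt counted from the start of each block, block 8 had 4, 4, 16, 7 and 0 G reads with ABA, against 2, 1, 3, 3 and 0 without ABA. The bin of 16 reads, from 6646950 to 6647049, holds position 6647015 and had rates of 0.476% (0.272 to 0.772) with ABA and 0.107% (0.0221 to 0.313) without ABA. The bins of block 9 had 7, 5 and 6 G reads with ABA, against 0, 1 and 1 without ABA. The last of them, from 6647469 to 6647534, had 0.448% (0.165 to 0.973) with ABA. The separate intervals of the libraries overlapped in each of the 7 bins that held a G read. The interval of the ratio lay above 1 from 6646950 to 6647049, at 4.44 (1.27 to 23.8). Of the 16 G reads there, 12 lay at 6647015, the position that led to the choice of GAPDH, so nothing is read from that interval. The interval of the ratio also lay above 1 from 6647269 to 6647368, the bin of 7 and 0 reads, with a lower limit of 1.29. In the other bins with a G read it held 1. Since these blocks were set apart for being higher with ABA, the direction in their bins adds nothing to that.

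Set against other nuclear blocks, GAPDH blocks mostly ranked high, in 1 library or in both. The comparison used the 6685 nuclear blocks outside GAPDH that were built in the same way and reached 1000 reads in each library. They share this minimum of summed reads and were not matched on depth per position. Block 8 had a rate at or above that of 95.8% of them with ABA and 85.3% without ABA, and block 9 of 95.8% and 51.7%. Block 5 was at or above 41.9% with ABA and 98.1% without ABA, and block 6 at or above 61.2% and 93.4%. Block 4 was at or above 93.3% with ABA and 91.0% without ABA, and block 7 at or above 88.8% and 90.4%. In the difference between libraries block 9, at 0.286 points, was at or above 97.7% of the other blocks, and block 5, at -0.210 points, at or above 0.374%. The median rate of the other blocks was 0.0688% with ABA and 0.0334% without ABA. Blocks 4 to 9 had mean depths of 71.1 to 110.2 reads per position. Nuclear positions outside GAPDH had a rate with ABA of 0.0793% at all depths and 0.238% at 50 reads or more. The part that depth has in these ranks was not tested. Blocks of few reads also spread more from counting error, so the ranks describe the 2 libraries only.

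Features of the positions that the files themselves give were examined next, since the base sequence around them was not used here. A positions without a listed A beside them numbered 164, and 127 lay in runs of 2 or more listed A positions. Lone A positions had 42 of 13783 reads (0.305%, 0.220 to 0.412) with ABA and 14 of 13214 (0.106%, 0.0579 to 0.178) without ABA. A positions in runs had 21 of 11106 reads (0.189%, 0.117 to 0.289) with ABA and 13 of 10226 (0.127%, 0.0677 to 0.217) without ABA. Without 6647015 lone A positions stood at 0.219% (0.148 to 0.313) with ABA, inside the interval of positions in runs. The 31 positions in runs of 3 or more had 2 of 2963 reads with ABA and 3 of 2576 without ABA. In the last 2 blocks lone A positions other than 6647015 had 24 of 8404 reads with ABA and 7 of 7959 without ABA, and positions in runs had 13 of 6520 and 4 of 5792. The ratios were 3.25 (1.36 to 8.92) for the lone positions and 2.89 (0.892 to 12.2) for those in runs, whose interval holds 1.

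Positions within 10 nt of the first or last listed position of a block were also set apart from the rest. These 49 positions had 7 of 3988 reads (0.176%, 0.0706 to 0.361) with ABA and 6 of 3896 (0.154%, 0.0565 to 0.335) without ABA. The ratio was 1.14 (0.328 to 4.11). Of the 49 positions, 36 lay in the 7 upstream blocks, so this contrast overlaps with the split of the blocks. The 242 positions further inside had 56 of 20901 reads (0.268%, 0.202 to 0.348) with ABA and 21 of 19544 (0.107%, 0.0665 to 0.164) without ABA, a ratio of 2.49 (1.49 to 4.34). These inside positions include 6647015. In the 7 upstream blocks the inside positions had 9 G reads with ABA and 10 without ABA.

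Summed read depth of GAPDH differed little between the libraries, while by block it was lower with ABA in block 2 and most raised in block 5. Per 1000000 nuclear base reads GAPDH held 622 with ABA and 570 without ABA at positions listed in both libraries, a ratio of 1.09 (1.07 to 1.11). By block the ratio was 0.628 (0.554 to 0.710) in block 2, 0.940 (0.849 to 1.04) in block 3, 1.14 in block 4, 1.26 (1.18 to 1.35) in block 5, 0.985 in block 6, 1.06 in block 7, 1.13 (1.10 to 1.17) in block 8 and 1.09 in block 9. Other nuclear blocks of at least 1000 reads had a median ratio of 1.03, and 90% of them lay between 0.792 and 1.29. Blocks 2 and 3 did not reach that size, so this range is not a like comparison for them. Mean depth was 29.6 reads with ABA and 48.5 without ABA in block 2, 35.2 and 38.5 in block 3, and highest in block 8, at 110.2 and 99.8. Depth in block 2 thus moved the other way from blocks 8 and 9, and the part this has in the higher G count with ABA at the 3′ end was not tested.

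**Figure D4:**
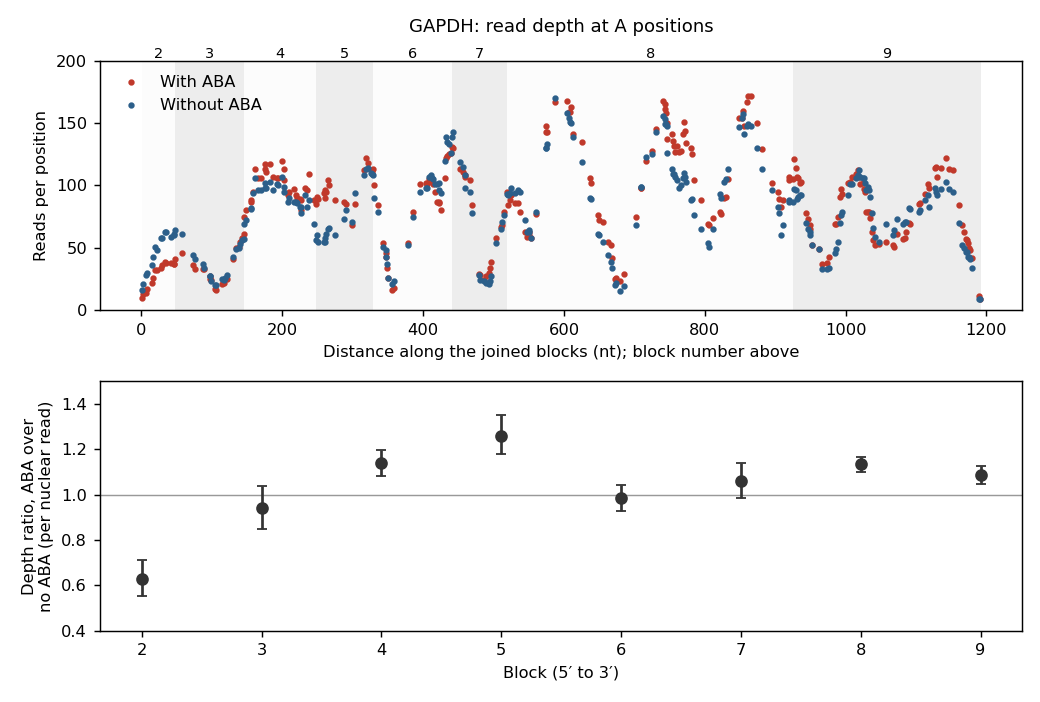
Above, reads per position (vertical axis) against distance in nt along the joined blocks (horizontal axis), with ABA in red and without ABA in blue; below, the ratio of depth with ABA over without ABA, each per nuclear base read, in blocks 2 to 9, with 95% counting intervals. The 2 libraries follow a similar profile, and block 2, at 0.628, is the block furthest from 1.

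The opposite strand of the same interval was sparsely covered. The minus-strand files listed 74 positions with 620 reads with ABA and 141 positions with 1395 reads without ABA, at a median depth of 8 and 9 reads. They lay within 10 nt of the 9 plus-strand blocks or inside them for 74 of 74 positions with ABA and 136 of 141 without ABA. A-to-G on that strand, which the files give as T-to-C, had 0 of 620 reads with ABA, which allows a rate of up to 0.484%, and 7 of 1395 without ABA. All 7 lay at 6646320, where 7 of 13 reads (53.8%, 25.1 to 80.8) carried the change, and which was not listed with ABA. Its share lies above the 35% from which a position counted as variant-like, and whether it reflects editing was not tested. This position was named after its value was seen. The remaining 140 positions without ABA had 0 of 1382 reads.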

How the data were processed

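Messenger RNA libraries, made with the KAPA mRNA HyperPrep kit per the labels, were available for 1 sample with ABA and 1 without ABA. The submitters' processing notes name cutadapt, HISAT2 and hg19, without versions, while the tool that counted bases is not named. The authors deposited raw counts of each base per position. A read cutoff of 5 per base stands in the file headers, and the shallowest position had 6 reads. Listed base reads numbered 45277712 with ABA and 51092343 without ABA.

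Shares, rates, blocks and depth ratios were computed from these counts as the text defines them. Shares have Clopper-Pearson intervals and ratios of rates exact conditional binomial intervals, and a count of 0 was given a floor of 3 reads. Both intervals were tested on simulated counts of independent reads, which does not cover the dependence between reads named above. No p-value was computed. Positions were named by size of difference (at least 10 points with 20 reads in both libraries), as holding most G reads in a block, or as among the 5 with most G reads in a library. Ties at the limit were resolved by keeping those with at least 2 G reads. The members, lists and rules were chosen with earlier results of these data known. The planned comparisons by exon, by neighbouring base and with other glycolytic enzymes need an hg19 annotation or sequence and were not run. Alternatives were other coverage minimums, block gaps, size limits, position sets and mismatches. Values were computed in Python 3.11.15 with pandas 2.3.3, numpy 2.4.6 and scipy 1.17.1, and drawn with matplotlib 3.10.9.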

Additional observations from a re-analysis of the deposited data

How the results depend on the processing

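The pooled GAPDH ratio of 2.20 kept its direction under each coverage minimum and treatment of variant-like positions that was tried. The direction was also the same over all listed positions, without position 6647015 (1.78) and without positions near block ends (2.49). At 50 reads or more in both libraries and without 6647015 the ratio was 1.72 (1.04 to 2.88). Parts of the transcript differed, with 0.853 (0.386 to 1.86) in the 7 upstream blocks. Positions in runs of 3 or more listed A had 0.580 (0.0484 to 5.06). With A-to-C or A-to-T mismatches in place of A-to-G, which are other changes and not other processing, the ratio was 0.943 in each case. The intervals of both hold 1 and 2.20. Joins of 25 and 80 nt gave the same 9 blocks, so the 4 higher and 3 lower blocks were bound to recur and this is no check of them. With the position of most G reads left out of each block the counts were also 4 and 3, but block 6 was then higher with ABA (2 and 1 G reads) and block 7 lower (1 and 2), so the direction of those blocks rests on single positions. The depth ratio of 1.09 was 1.20 over all listed positions of each library, where the nuclear total also holds positions listed in 1 library alone. Alternatives for the last 2 blocks and for block ends were chosen after seeing the data. Ratios ran from 3.10 for the last 2 blocks without 6647015 to 8.51 for block 9 alone. Block 8 without 6647015 was lower, at 1.91 (0.826 to 4.81). These blocks were set apart for being higher with ABA, so their ratios are no check of that. Depth limits single positions: with 0 of 76 reads the exact upper limit of the share was 4.74%. No paired analysis was possible because each condition had 1 library.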
